A study of Mus musculus with 8 samples.

Results

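Leukaemia-initiating cells without Ezh2 were compared with the normal blood-forming cells that carry the same surface markers. The comparison rests on 2 arrays of Ezh2-knockout leukaemia-initiating cells (Ezh2 KO LICs) and 3 arrays of normal LSK cells, 5 of the 8 arrays in the series, and on 11963 of 12393 measured genes. Genes of chromosomes X and Y (410) and immunoglobulin segments (20) were left out, and each gene was read by its brightest probe set. LSK cells are marrow cells that lack lineage markers and carry Sca1 and Kit, a fraction rich in stem cells and multipotent progenitors. They came from C57/BL6 mice of 12 weeks; the labels title them as wild-type HSC. The LICs were GFP-positive LSK cells from a retroviral mouse model of chronic myeloid leukaemia (CML), sorted 14 days after bone marrow transplantation, and were either wild type (WT LICs, 3 arrays) or Ezh2 KO. The labels give C57/BL6 and 12 weeks for all 3 groups, and every sample was sorted in a repeat pass. The sources used here do not give the oncogene of the retrovirus, the Ezh2 allele and how it was deleted, the animals' sex, or whether animals were pooled. No transplantation is given for the LSK cells, so transplantation, retroviral infection and leukaemia come together in each comparison with LSK. WT LICs served to sort the differences of Ezh2 KO LICs into those also present with Ezh2 and those present in neither other group.

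EZH2 is the main catalytic subunit of Polycomb repressive complex 2 (PRC2), which methylates lysine 27 of histone H3 and keeps developmental and lineage genes silent. EZH1 is its less active relative and can take its place in some cells. In blood-forming stem cells PRC2 is known for holding down the Cdkn2a cell-cycle inhibitor locus and for shaping B-lymphoid development. In CML the BCR-ABL kinase drives STAT5, RAS and PI3-kinase signalling, and the cells that maintain the disease are found in the LSK fraction.

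Array medians lay between 7.11 and 7.32 on the log2 scale over the gene probe sets, and the 3′ minus 5′ difference of the Gapdh control probe sets was 0.66 to 0.96 on all arrays. Of 6 markers of the LSK gate, 5 were measured, and all were above the level of unspiked bacterial controls, 4.01, in each group. The summed intensity of 5 erythroid markers was 1723 to 2685 in LSK, 91.0 to 5515 in WT LICs, lowest in replicate 3, and 165 to 473 in Ezh2 KO LICs. The summed intensity of 4 mast cell and basophil markers was 314 to 637 in LSK, 2131 to 5685 in WT LICs and 533 to 1773 in Ezh2 KO LICs. The part of these cell types in the results below was not tested. The Y-linked Eif2s3y was at 9.80 and 9.25 in Ezh2 KO LICs and at or below 1.63 in LSK, while Xist was above 10.6 in both groups, so sex and group cannot be told apart. With 2 arrays against 3, the number of arrays limits the precision, and over genes the log2 difference had a median standard error of 0.232.

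Ezh2 itself read 10.77, 10.95 and 11.07 in LSK and 8.94 and 9.55 in Ezh2 KO LICs, on the log2 scale used for all values here. WT LICs were at 11.33, 11.44 and 11.26. Both knockout arrays lay below all others, and Ezh2 was 1.69 lower than in LSK (SE 0.21, limma adjusted p = 0.0107). The sources used here do not say whether its single probe set lies within the deletion, so the remaining signal does not check it. Ezh1 was also lower, at 6.83 and 6.41 against 7.91, 9.05 and 8.35 in LSK (difference -1.82, SE 0.32, adjusted p = 0.0292), and this call was lost under 7 of 18 alternative settings. The other 9 of 11 measured PRC2 subunits did not pass the test. Of 14 PRC1 subunits, which belong to the partner complex that ubiquitinates histone H2A, only Bmi1 was called, 1.06 higher (SE 0.16, adjusted p = 0.0198). The Bmi1 call was lost under 6 of 18 alternatives. Over all genes kept, 1.61% were called higher and 1.86% lower than in LSK.

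Between Ezh2 KO LICs and LSK, 415 genes (3.47% of those kept) were called at an adjusted p under 0.05, of which 193 were higher (1.61%) and 222 lower (1.86%). WT LICs differed from LSK in 404 genes (3.38%), 152 higher (1.27%) and 252 lower (2.11%). Ezh2 KO and WT LICs differed in 75 genes (0.627%), 69 of them higher (0.577%) and 6 lower (0.0502%) without Ezh2. The arrays of the 2 groups did not overlap at all for 38.7%, 26.6% and 29.9% of genes in these 3 comparisons, far more than passed the test. So few arrays often separate without any difference between groups, and 2 arrays against 3 do so more easily than 3 against 3. These shares therefore neither count changed genes nor rank the comparisons. These counts depend strongly on single arrays: 415 became 130 and 114 without Ezh2 KO replicate 1 or 2, 160 to 213 without one LSK array, and 625 without WT LIC replicate 3. The 404 became 191 to 193 without one LSK array, 163 and 164 without WT LIC replicate 1 or 2 and 612 without replicate 3, and the 75 became 23 and 35 without WT LIC replicate 1 or 2, 139 without replicate 3 (89 higher and 50 lower), 38 without Ezh2 KO replicate 2 and 49 without LSK replicate 3. Scaling moved the balance of directions, from 46.5% of calls higher to 57.7% after cyclic loess and 66.6% after median centring, which shifted the median of all genes from -0.02 to 0.12.

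The first question was which leukaemic change remained without Ezh2. Of the genes called in Ezh2 KO LICs, 171 were called in the same direction in WT LICs, 68 higher and 103 lower than in LSK, and 0 were called in opposite directions. The shared higher genes had a median difference from LSK of 1.89 in Ezh2 KO LICs and 1.68 in WT LICs, and the shared lower genes -1.69 and -1.71. The median over all genes was -0.02 and 0.02. Both comparisons use the same LSK arrays, so the agreement of their directions is not independent evidence. Only 3 of the 171 genes, Abcg3, Ctr9 and Ldhb, were also called between Ezh2 KO and WT LICs. The 171 became 43 and 50 without Ezh2 KO replicate 1 or 2, 82 to 86 without any one LSK array or WT LIC replicate 1 or 2, and 259 without WT LIC replicate 3. Their share of higher genes went from 39.8% to 62.2% after median centring.

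Enah, which encodes an actin regulator of the leading edge of moving cells, read 3.36, 3.15 and 3.81 in LSK, 9.83, 10.32 and 9.22 in WT LICs and 10.30 and 10.68 in Ezh2 KO LICs. Every LIC array was far above every LSK array, and Ezh2 KO LICs were at least 89.4-fold higher than LSK (adjusted p = 0.000229). Here and below, "at least" means that the mean of the dimmer group lay at or under 4.01; each of its arrays below 4.01 was then set to that level before averaging. The 4 probe sets of Enah differed: the others changed by 1.69 to 6.34. Ccn3, a secreted matricellular protein, was at 2.39, 3.33 and 2.90 in LSK and at 8.84 and 9.08 in Ezh2 KO LICs, at least 30.8-fold higher (adjusted p = 0.000229), with WT LICs at 8.09, 8.31 and 8.07. Pmaip1 encodes the pro-apoptotic protein Noxa and went from 2.61, 3.73 and 5.62 to 10.47 and 10.23, at least 56-fold higher (adjusted p = 0.00981). WT LICs had it at 8.22, 8.75 and 9.17. Its LSK arrays were widely spread, and without Ezh2 KO replicate 1 or 2 the call was lost (adjusted p up to 0.0581).

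Surface and metabolic genes were among the shared rises. Podxl, a sialomucin of the CD34 family, was at 6.49, 7.44 and 8.15 in LSK, 11.26, 11.76 and 10.76 in WT LICs and 11.18 and 11.68 in Ezh2 KO LICs, a difference of 4.07 (SE 0.49, adjusted p = 0.00983). Its other probe set changed by 0.63. Bcat1, the cytosolic transaminase of branched-chain amino acids, rose by 4.27 (SE 0.64, adjusted p = 0.0202) and reached 11.47 and 11.60. Ptgir, the prostacyclin receptor, rose by 3.39 (adjusted p = 0.0206) and the aldo-keto reductase Akr1c12 by 3.41 (adjusted p = 0.00795). Trgv4, a variable segment of the T-cell receptor gamma locus, was 6.01 higher (limma adjusted p = 0.0137), and its other probe sets changed by 5.99 and -0.08. Of its 3 probe sets 1 was at or under the control level on every array. Podxl and Akr1c12 lost their call under 1 of 18 alternatives, Bcat1 and Trgv4 under 2 and Ptgir under 3.

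Genes that the STAT5 arm of cytokine signalling is known to induce rose in part. Socs2, a feedback inhibitor, was at 7.82, 8.63 and 8.53 in LSK, 11.38, 11.70 and 12.04 in WT LICs and 11.57 and 11.90 in Ezh2 KO LICs. The LIC groups overlapped each other and lay above LSK, by 3.41 (SE 0.30, adjusted p = 0.0031) in Ezh2 KO and 3.38 in WT LICs. Id1, an inhibitor of basic helix-loop-helix factors, rose by 3.94 (adjusted p = 0.000616) and 3.14 (adjusted p = 0.000957), and kept its call over LSK under all 18 alternatives, as Socs2 did. The cytokine gene Lif rose at least 5.4-fold over LSK in Ezh2 KO LICs (adjusted p = 0.0463), a call lost under 7 of 18, and its difference between the LIC groups did not pass (adjusted p = 0.529). In all, 3 of 20 list members rose (15%, beside 1.61% of all genes) and 0 fell, with a median of 0.46 against 0.01 in WT LICs, and 2 rose without any one Ezh2 KO or LSK array.

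On the lower side, the stem cell list had 7 of 35 members called lower and 0 higher, against 1.86% of all genes called lower, with a median of -0.79. In WT LICs 11 fell (beside 2.11% of all genes) and 1 rose (beside 1.27%), with a median of -1.19. Pdzk1ip1, a small membrane protein enriched in stem cells, read 9.21, 9.66 and 9.41 in LSK, 5.81, 5.92 and 6.10 in WT LICs and 6.03 and 6.31 in Ezh2 KO LICs. All LIC arrays sat well below LSK, and the Ezh2 KO difference was -3.26 (SE 0.19, adjusted p = 0.000424). Sult1a1, a sulfotransferase, was at 7.46, 9.0 and 8.55 in LSK and at 3.37 and 2.75 without Ezh2, at least 20-fold lower (adjusted p = 0.00405). The cation channel gene Trpc6 fell by 3.87 (adjusted p = 0.0133), and Tie1, a co-receptor of the angiopoietin system, by 2.30 (adjusted p = 0.0285). The other 3 were Angpt1, a ligand of this system, Eng, a TGF-beta co-receptor, and Kit, on which the cells were gated, with differences of -1.21, -0.92 and -0.78. Without one Ezh2 KO or LSK array 2 to 4 members were called lower, without Ezh2 KO replicate 1 the fewest.

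Other shared falls were large. Jchain, the joining chain of secreted antibody, was at 11.19, 10.40 and 11.09 in LSK, 5.09, 4.83 and 5.44 in WT LICs and 3.76 and 4.70 in Ezh2 KO LICs, 6.66 lower than LSK (SE 0.36, adjusted p = 0.000287). The summed intensity of 7 antibody-secreting cell markers was 3452 to 4862 in LSK, 1241 to 1521 in WT LICs and 1435 to 1889 in Ezh2 KO LICs, and its part in the fall of Jchain was not tested. Jchain is one of the 7; without it the sums were 2103 to 2534, 1206 to 1477 and 1409 to 1876. Of 15 antibody-secreting cell genes 2 fell (13.3%, beside 1.86% of all genes), Jchain and the receptor gene Tnfrsf17, with a median of -0.01. In sorted populations such as these, fewer cells of a type and less RNA per cell cannot be told apart. Cavin2, a caveolar coat protein found in platelets, dropped at least 28.7-fold (adjusted p = 0.00255), while the platelet chemokine Pf4 fell by 2.80 (adjusted p = 0.0252). With them, 2 of 17 megakaryocyte and platelet genes fell (beside 1.86% of all genes) and 1 rose (beside 1.61%), F2r, the thrombin receptor gene, by 0.97 (adjusted p = 0.0273). Without either Ezh2 KO array or LSK replicate 1 or 2, 1 of the 17 fell, and without WT LIC replicate 3, 4 fell. The summed intensity of 6 megakaryocyte markers, Pf4 among them, was 1231 to 1979 in LSK, 330.3 to 602 in WT LICs and 427 to 484 in Ezh2 KO LICs, and its part in these falls was not tested. The growth factor gene Ptn was lower by at least 5.71-fold (adjusted p = 0.00168), the Golgi GTPase gene Rab6b by at least 14.9-fold (adjusted p = 0.0099) and the transcript of the Gt(ROSA)26Sor locus by at least 10.1-fold (adjusted p = 0.0116). Rab6b, Gt(ROSA)26Sor and Trpc6 each lost their call under 1 of 18 alternatives, without Ezh2 KO replicate 1. Pcp4l1, a small calmodulin-binding protein gene, fell by 3.76 (adjusted p = 0.0285), and this call was lost under 5 of 18 alternatives.

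**Figure D1:**
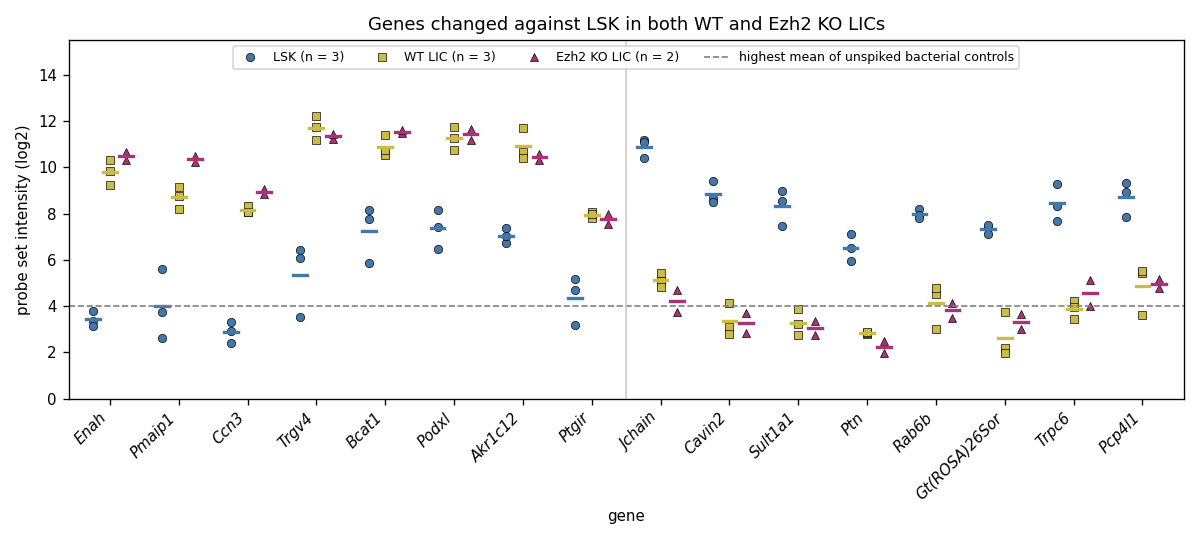
Log2 intensity of the 16 named genes called against LSK in both LIC groups; each point is an array, short bars are group means and the dashed line is the 4.01 level of unspiked bacterial controls. For the 8 genes on the left every LIC array lies above every LSK array, and for the 8 on the right below.

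Division genes were higher in part. Of 40 measured genes of G2 and mitosis 4 rose in Ezh2 KO LICs (10%, beside 1.61% of all genes), with a median of 0.72, and 9 rose in WT LICs (beside 1.27% of all genes), with a median of 0.67. Plk1, the mitotic kinase, rose by 1.46 (SE 0.22, adjusted p = 0.0208), the ubiquitin-conjugating enzyme Ube2c by 1.27, cyclin A2 (Ccna2) by 0.85 and the kinetochore gene Nuf2 by 0.81. Each of these 4 calls was lost under at least 4 of 18 alternatives: without Ezh2 KO replicate 2, 0 of 40 passed limma's adjusted test (21 rose unadjusted with all arrays), without any other array but WT LIC replicate 3, 1 or 2 passed, and without that one 7 passed. Of 33 genes of G1/S and replication only the exonuclease gene Exo1 was called (3.03%, beside 1.61% of all genes), 1.12 higher (limma adjusted p = 0.0108). Of 19 genes of serine synthesis and the integrated stress response, 4 rose in each LIC group (21.1%, beside 1.61% of all genes in Ezh2 KO LICs and 1.27% of all genes in WT LICs). Without Ezh2 KO replicate 1, 0 rose in Ezh2 KO LICs by limma's adjusted test, and without Ezh2 KO replicate 2 or LSK replicate 2 or 3, 1 rose. Mthfd2, the mitochondrial folate enzyme, rose by 1.87 in Ezh2 KO and 1.65 in WT LICs. Sterol synthesis had 1 of 17 members called higher (5.88%, beside 1.61% of all genes), Mvd at 1.30. In WT LICs 4 were called higher (beside 1.27% of all genes), and the difference in these counts was not tested.

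The second question was what is found in neither LSK nor WT LICs. Ezh2 KO LICs stood apart from both groups in the same direction for 46 genes, 42 higher and 4 lower. For 24 of the 42 the means of LSK and of WT LICs were both at or under the control level. The 46 became 18 and 22 without WT LIC replicate 1 or 2, 27 to 32 without one LSK array, 49 and 31 without Ezh2 KO replicate 1 or 2, and 63 without WT LIC replicate 3, of which 47 were higher and 16 lower. Both comparisons use the Ezh2 KO arrays, so the agreement of their directions is not independent evidence.

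Genes of early B-lymphoid cells were among the 42. Of 23 measured pre-B cell genes 7 rose against LSK (30.4%, beside 1.61% of all genes), 0 fell, and the median was 0.43. In WT LICs 0 rose by limma's test (1 at an unadjusted p under 0.05) and 1 fell (beside 2.11% of all genes). Between the LIC groups 6 were called higher in Ezh2 KO LICs (beside 0.577% of all genes). Igll1, the lambda5 chain of the surrogate light chain on pre-B cells, was at 4.19, 3.82 and 5.11 in LSK, 6.09, 5.21 and 5.52 in WT LICs and 11.36 and 10.31 in Ezh2 KO LICs. Both knockout arrays lay above all 6 others, by 6.46 from LSK (SE 0.47, adjusted p = 0.00143) and 5.23 from WT LICs (adjusted p = 0.00753). The other Igll1 probe set changed by 0.49. Its partner Vpreb1 rose by 4.07 over LSK (adjusted p = 0.0286), with 3.85 over WT LICs not passing (adjusted p = 0.0852). Vpreb3, a related chaperone-like chain, was at 3.90, 3.74 and 4.40 in LSK, 4.52, 3.89 and 4.46 in WT LICs and 9.07 and 8.09 in Ezh2 KO LICs (4.56 from LSK, adjusted p = 0.00168).

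Some signalling and regulatory genes of the lineage also rose. Cd79a, the signalling chain Ig-alpha, read 4.75, 4.44 and 5.0 in LSK, 5.08, 4.37 and 4.94 in WT LICs and 8.95 and 8.03 in Ezh2 KO LICs, a rise of 3.76 over LSK (adjusted p = 0.00316). Spib, an ETS factor, rose at least 7.82-fold over LSK (adjusted p = 0.00246), and the octamer coactivator gene Pou2af1 rose by 3.56 (adjusted p = 0.0253). Rag1, the recombinase that joins receptor segments, was at 3.81, 4.46 and 5.90 in LSK, 3.82, 4.11 and 4.02 in WT LICs and 9.31 and 9.18 without Ezh2, 4.52 above LSK (SE 0.53, adjusted p = 0.00887). Its partner Rag2 was at 5.57, 5.14 and 6.26 in LSK and 6.26 and 6.10 in Ezh2 KO LICs and was not called (adjusted p = 0.803). Enpep, the aminopeptidase BP-1 found on early B cells, was at 1.60, 2.25 and 1.72 in LSK, 1.60, 1.87 and 1.88 in WT LICs and 6.90 and 6.59 in Ezh2 KO LICs, at least 6.65-fold higher than either group (adjusted p = 0.000229 against LSK and 0.000729 against WT LICs). Ly6d, a marker of B-biased lymphoid progenitors, rose by 2.20 (limma adjusted p = 0.0472), a call lost under 10 of 18 alternatives. Of 17 measured lymphoid priming genes, 3 rose against LSK (beside 1.61% of all genes) and 1 fell (beside 1.86%). Their median was -0.32, with 6 of the 17 differences positive, and -0.99 in WT LICs. Cd48 rose by 0.81 and Cd27 fell by 1.61 (limma adjusted p = 0.0344 and 0.0105).

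Other genes of the lineage did not pass the test. Pax5, which commits cells to the B lineage, was at 2.48 and 2.32 in Ezh2 KO LICs and 2.60, 2.66 and 2.34 in LSK, and Ms4a1 (CD20) at 2.47 and 2.34 against 2.32, 2.37 and 2.04, so both were under the control level in these groups. Ebf1, the factor upstream of Pax5, was at 9.23 and 8.80 in Ezh2 KO LICs, 2.84, 4.84 and 6.23 in LSK and 7.06, 2.70 and 5.73 in WT LICs. The knockout arrays were the highest 2, yet the spread of the others was wide and the difference of 4.38 did not pass (adjusted p = 0.129). Cd79b, the partner chain of Cd79a, was at 10.24 and 9.47 in Ezh2 KO LICs and 9.41, 9.68 and 9.61 in LSK and was not called (limma adjusted p = 0.688). The summed intensity of 7 measured B-lineage markers was 4043 to 6844 in Ezh2 KO LICs, 823 to 1146 in LSK and 436 to 869 in WT LICs. Igll1, Vpreb1 and Cd79a, which rose over LSK, are among these markers, so the sum is not separate from their rises. Whether some sorted cells were of the B lineage was not tested. Leaving out one Ezh2 KO or LSK array left 4 or 5 called, all among the 7, and 7 were called under each of 3 other scalings. Igll1, Vpreb3, Cd79a, Spib and Enpep kept their call over LSK under all 18 alternatives, and Rag1 lost it under 2 (adjusted p up to 0.0551).

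The sequences just upstream of these genes are shown for 4 of the B-lineage genes, since they rose together. Those of 2 other genes that rose are shown as well, each at a start with many CG pairs. Each run is the 250 bases before the start of transcription in RefSeq, build GRCm38.p6, 5′ to 3′ on the gene's strand. In the first 4, capitals mark E-boxes, CANNTG, the sites of basic helix-loop-helix factors such as E2A, and overlapping E-boxes share their capitals. In the last 2, capitals mark CG pairs. They lie at chr16:16863986-16864235, minus strand (Igll1), chr10:75948050-75948299, plus strand (Vpreb3), chr7:24897247-24897496, plus strand (Cd79a), chr2:101649533-101649782, minus strand (Rag1), chr4:48584924-48585173, plus strand (Tmeff1) and chr4:89294620-89294869, minus strand (Cdkn2a, the upstream one of 2 listed starts).
Igll1: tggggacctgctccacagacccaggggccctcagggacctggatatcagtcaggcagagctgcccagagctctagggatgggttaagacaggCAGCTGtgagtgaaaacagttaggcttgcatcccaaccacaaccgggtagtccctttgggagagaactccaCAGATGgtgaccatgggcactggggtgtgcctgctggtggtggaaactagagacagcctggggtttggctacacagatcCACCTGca
Vpreb3: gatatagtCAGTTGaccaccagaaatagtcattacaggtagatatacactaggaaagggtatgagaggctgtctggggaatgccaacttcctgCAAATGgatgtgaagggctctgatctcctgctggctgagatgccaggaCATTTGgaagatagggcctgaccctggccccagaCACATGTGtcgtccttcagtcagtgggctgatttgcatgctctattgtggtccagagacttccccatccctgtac
Cd79a: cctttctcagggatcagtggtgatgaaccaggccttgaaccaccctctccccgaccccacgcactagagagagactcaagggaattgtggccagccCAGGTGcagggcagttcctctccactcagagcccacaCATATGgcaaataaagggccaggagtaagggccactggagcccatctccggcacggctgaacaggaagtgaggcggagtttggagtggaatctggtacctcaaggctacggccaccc
Rag1: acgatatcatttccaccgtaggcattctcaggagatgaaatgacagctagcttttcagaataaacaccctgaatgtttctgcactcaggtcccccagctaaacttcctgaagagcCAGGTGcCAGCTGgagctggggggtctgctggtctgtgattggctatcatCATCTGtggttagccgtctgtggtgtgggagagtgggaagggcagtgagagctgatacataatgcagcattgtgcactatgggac
Tmeff1: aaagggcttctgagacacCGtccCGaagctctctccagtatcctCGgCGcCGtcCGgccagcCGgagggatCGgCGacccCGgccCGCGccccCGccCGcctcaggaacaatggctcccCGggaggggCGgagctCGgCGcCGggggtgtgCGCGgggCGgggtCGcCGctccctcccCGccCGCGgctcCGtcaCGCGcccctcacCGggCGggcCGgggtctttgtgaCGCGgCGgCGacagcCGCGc
Cdkn2a: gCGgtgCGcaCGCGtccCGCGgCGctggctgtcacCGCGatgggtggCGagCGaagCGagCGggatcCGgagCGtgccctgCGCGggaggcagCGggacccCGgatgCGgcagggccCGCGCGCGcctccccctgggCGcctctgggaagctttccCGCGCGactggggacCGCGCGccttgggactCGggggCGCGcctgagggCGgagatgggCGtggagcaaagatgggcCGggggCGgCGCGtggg
The 4 B-lineage runs hold 1 to 6 CG pairs and 2 to 5 E-boxes each, and the Tmeff1 and Cdkn2a runs hold 39 and 40 CG pairs. The 250 bases before the other listed Cdkn2a start, not printed, hold 7 CG pairs.

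Both features were about as common over all genes. Promoters were found for 31 of the 42 genes that rose apart from both groups and for 9531 of the 11963 genes kept. An E-box, which reads alike on both strands, was found for 21 of the 31 genes (67.7%) and for 64% of all genes kept, and in 66.2% of all 32851 windows. The 250 bases were CpG-rich, with at least 55% G and C and an observed over expected CG ratio of at least 0.65, for 13 of 31 (41.9%), against 47.7% of all genes. Among genes lower in both LIC groups the CpG-rich share was 31.2% (25 of 80), and among those higher in both 43.1% (22 of 51). The AP-1 motif TGANTCA, on either strand, was found for 0 of the 31 and for 6.84% of all genes. A gene with several windows counted once, if any of them held the feature.

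Outside the B lineage, a chemokine gene and genes of the AP-1 family were among the 42. Cxcl2, a neutrophil-attracting chemokine, was at 2.48, 2.02 and 3.52 in LSK, 2.46, 2.34 and 3.02 in WT LICs and 6.78 and 9.38 in Ezh2 KO LICs, at least 16.8-fold higher than either group (adjusted p = 0.0154 and 0.0279). Of 23 chemokine and NF-kB response genes Cxcl2 alone rose against LSK (beside 1.61% of all genes), with a median of 0.04. In the same list 2 fell (beside 1.86% of all genes), the chemokine genes Ccl4 (-2.18, limma adjusted p = 0.0413) and Ccl9 (-2.39, limma adjusted p = 0.0463). Without either Ezh2 KO array, LSK replicate 1 or 3, or WT LIC replicate 1, neither fall was called. Fosb, an AP-1 subunit, was at 2.43, 3.33 and 4.27 in LSK, 2.63, 2.68 and 3.20 in WT LICs and 7.03 and 9.52 in Ezh2 KO LICs, at least 18.2-fold above LSK (adjusted p = 0.0208). For both Cxcl2 and Fosb, Ezh2 KO replicate 2 was far brighter than replicate 1, and Fosb lost its call over LSK under 4 of 18 alternatives. Against WT LICs the calls of Cxcl2 and Fosb were lost under 6 and 5 of 18. Atf3, a stress-induced factor of the same family, rose at least 5.52-fold (adjusted p = 0.00504), and Egr2, a zinc finger factor, at least 13.1-fold higher (adjusted p = 0.0359) than LSK, a call lost under 8 of 18 alternatives. Egr2 was not called against WT LICs (adjusted p = 0.309). In all 3 of 21 immediate early genes rose against LSK (14.3%, beside 1.61% of all genes) and 0 fell, 2 of them also called against WT LICs, with a median of 0.72 against -0.45 in WT LICs. The best-known member, Fos, was at 6.64, 9.78 and 10.62 in LSK and 11.54 and 12.53 in Ezh2 KO LICs and was not called (adjusted p = 0.223). Without Ezh2 KO replicate 2, or without LSK replicate 1 or 2, 1 of the 21 was called.

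Other genes of the 42 had various roles. Mpzl2, an adhesion molecule of the immunoglobulin family, was at 1.79, 1.71 and 2.27 in LSK, 2.28, 2.28 and 1.85 in WT LICs and 6.78 and 7.65 in Ezh2 KO LICs. It was at least 9.23-fold higher than either (limma adjusted p = 0.000419 and 0.00152). Its other probe sets changed by 1.03 and 3.58 against LSK, and 1 of its 3 probe sets was at or under the control level on every array. Tmeff1, a transmembrane protein with follistatin-like modules, rose by 4.09 over LSK and 4.07 over WT LICs (adjusted p = 0.0154 and 0.0288), calls lost under 3 and 8 of 18 alternatives. Igf2bp3, an RNA-binding protein of fetal tissues, was at 5.36, 3.75 and 4.70 in LSK, 5.75, 5.84 and 4.64 in WT LICs and 9.26 and 9.01 in Ezh2 KO LICs, 4.54 above LSK (adjusted p = 0.00829). With it 3 of 11 measured fetal-type genes rose against LSK (27.3%, beside 1.61% of all genes; 1 without Ezh2 KO replicate 1), the chromatin protein gene Hmga2 by 2.50 (adjusted p = 0.00711) and Arid3a by 1.09 (adjusted p = 0.0312). Hmga2 was also called in WT LICs, at 1.26 (adjusted p = 0.0384). Pbx3, a TALE homeodomain partner of Hox proteins, rose by 1.80 over LSK (limma adjusted p = 0.0108). It was the only one of 16 Hoxa, Hoxb and TALE genes called (beside 1.61% of all genes called higher). The median of the 16 was -0.50, with 5 differences positive, and 6 were lower and 1 higher at an unadjusted p under 0.05. In WT LICs 3 of the 16 fell (beside 2.11% of all genes), with a median of -0.90. Of 34 adhesion and junction genes 3 rose against LSK (beside 1.61% of all genes) and 1 fell (beside 1.86%). The 3 that rose were Enah, Ccn3 and Tjp1, all shared with WT LICs. Against WT LICs 1 of the 34, Sdc4, was called (beside 0.627% of all genes). Among genes chosen after their values were seen, the BMP receptor gene Bmpr1a rose at least 8.17-fold over LSK, the Wnt receptor gene Fzd2 at least 9.46-fold, Hoxc4 at least 9.35-fold, Alpl at least 4.84-fold and the tight junction gene Cldn7 at least 4.09-fold. Of 54 developmental transcription factors on the list 0 rose by limma's test (3 unadjusted) and 1 fell (beside 1.86% of all genes), Sox6. It was at least 7.63-fold lower (limma adjusted p = 0.0179).

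The 4 genes lower than in both other groups included Ezh2. Ptpn22, a phosphatase that dampens antigen receptor signalling, was at 9.35, 8.65 and 9.05 in LSK, 7.83, 7.52 and 8.82 in WT LICs and 5.79 and 5.30 in Ezh2 KO LICs, 3.47 below LSK (adjusted p = 0.00875). The long non-coding RNA Neat1, the scaffold of paraspeckles, was 2.66 below LSK (adjusted p = 0.00355) and 1.72 below WT LICs (adjusted p = 0.0304). Stat6, the effector of interleukin-4 signalling, was 1.15 below LSK and 1.12 below WT LICs (adjusted p = 0.0189 and 0.0363). Ptpn22 was 2.52 below WT LICs (limma adjusted p = 0.0497). Against WT LICs the calls of Ptpn22, Neat1 and Stat6 were lost under 11, 9 and 10 of 18 alternatives. Without any one LSK array, or WT LIC replicate 1 or 2, the set held 1 lower gene, and without WT LIC replicate 3 it held 16.

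**Figure D2:**
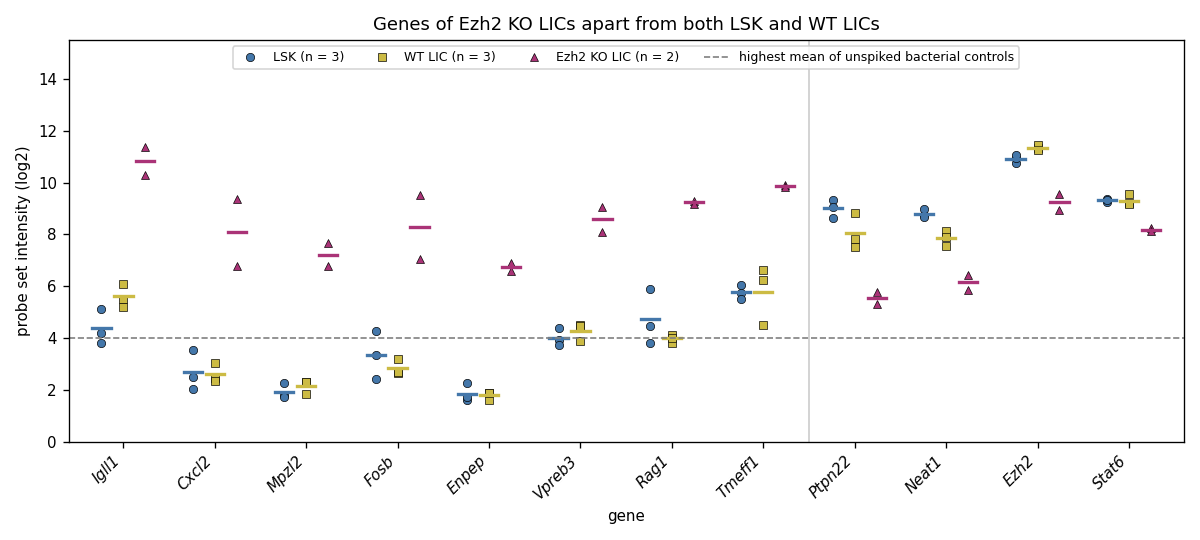
Log2 intensity of the 12 named genes for which Ezh2 KO LICs differed from both LSK and WT LICs; points are arrays, short bars group means and the dashed line the 4.01 control level. The 2 Ezh2 KO arrays lie above every other array for the 8 genes on the left and below every other for the 4 on the right.

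Cdkn2a, which encodes the p16 and p19Arf inhibitors of the cell cycle, was read at 2.45, 2.97 and 2.34 in LSK, 3.94, 4.51 and 2.40 in WT LICs and 8.46 and 6.69 in Ezh2 KO LICs. The knockout arrays were the brightest, at least 11.8-fold above LSK (adjusted p = 0.0157). Against WT LICs, whose mean was also under the control level, the difference did not pass (adjusted p = 0.0707), and against LSK the call was lost under 2 of 18 alternatives (adjusted p up to 0.0755). Its single probe set was not assigned to either start. Targets of p53, the tumour suppressor that p19Arf protects, rose in part: 6 of 26 were called higher (23.1%, beside 1.61% of all genes), 0 lower, with a median of 0.37. In WT LICs 2 rose (beside 1.27% of all genes) and 2 fell (beside 2.11%). Zmat3, an RNA-binding p53 target, was at 6.62, 6.62 and 7.40 in LSK, 8.29, 7.95 and 7.12 in WT LICs and 10.74 and 10.79 in Ezh2 KO LICs, 3.88 above LSK (adjusted p = 0.00453) and 2.98 above WT LICs (adjusted p = 0.0217). Phlda3, an inhibitor of AKT, rose by 2.87 (adjusted p = 0.00937).

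The cell-cycle inhibitor gene Cdkn1a belonged to the shared rises, at 6.06, 6.0 and 6.91 in LSK, 8.63, 8.63 and 9.17 in WT LICs and 10.51 and 9.83 in Ezh2 KO LICs. It was 3.85 above LSK without Ezh2 (SE 0.35, adjusted p = 0.00317), and the step from WT to Ezh2 KO LICs did not pass (adjusted p = 0.205). Perp, a desmosomal p53 target, and Ccng1, cyclin G1, rose over LSK by 3.77 and 0.81 (adjusted p = 0.017 and 0.0486), with Pmaip1, described above, as the sixth. Mdm2, the p53 ligase and target, was at 11.15, 11.04 and 10.96 in LSK and 11.08 and 11.13 in Ezh2 KO LICs and was not called (adjusted p = 0.89). Without Ezh2 KO replicate 1, 2 of the 26 rose and 1 fell, and without replicate 2, 3 rose.

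Further large rises over LSK did not pass against WT LICs. Spats2, which encodes a cytoplasmic RNA-binding protein, went from 5.21, 4.99 and 3.34 in LSK to 10.11 and 9.92 in Ezh2 KO LICs, a rise of 5.50 (adjusted p = 0.0252), and Dpysl3, a cytoskeletal protein of neurons, was at least 9.81-fold higher (adjusted p = 0.0104). In WT LICs Spats2 was at 6.10, 6.26 and 3.45 and Dpysl3 at 3.30, 4.60 and 5.64, below both Ezh2 KO arrays. The other probe sets of Dpysl3 changed by -0.07 and 0.13 against LSK. Of its 3 probe sets 2 were at or under the control level on every array. Spats2 lost its call under 5 of 18 alternatives. In all 198 genes called against LSK in Ezh2 KO LICs were called in neither other comparison, 83 higher and 115 lower. Such genes are not shown to differ between Ezh2 KO and WT LICs.

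Another pattern was change present in WT LICs and set back without Ezh2. It held 22 genes, 21 lower in WT LICs than in LSK and 1 higher, and without WT LIC replicate 3 it held 71, 39 lower and 32 higher. Their median difference from LSK was -2.11 in WT LICs and 0.36 in Ezh2 KO LICs; since the rule used both contrasts, this is a description. Sdc4, a heparan sulfate proteoglycan of focal adhesions, was at 8.70, 9.35 and 9.58 in LSK, 3.68, 4.90 and 7.03 in WT LICs and 10.77 and 10.53 in Ezh2 KO LICs. The WT LIC arrays were low and spread, and the knockout arrays lay above all LSK arrays, without passing against LSK (adjusted p = 0.407). The Sdc4 calls in WT LICs against LSK and between the LIC groups were lost under 8 and 9 of 18 alternatives. Pdk4, which shuts off pyruvate dehydrogenase, was at 8.06, 6.69 and 5.19 in LSK, 2.97, 2.15 and 2.91 in WT LICs and 7.36 and 7.86 in Ezh2 KO LICs, at least 12.1-fold higher in Ezh2 KO than in WT LICs (adjusted p = 0.0355). This last call was lost under 7 of 18 alternatives.

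The desmosomal cadherin genes Dsg2 and Dsc2 followed the same course. Dsg2 fell by 2.41 in WT LICs (adjusted p = 0.0276) and was 3.37 above that in Ezh2 KO LICs (adjusted p = 0.0279), and Dsc2 dropped at least 2.32-fold (adjusted p = 0.0118) and exceeded this by at least 2.75-fold without Ezh2 (adjusted p = 0.0279). Hspb8, a small heat shock protein, and Vash2, a vasohibin, exceeded their WT LIC level at least 11-fold and 5.6-fold (limma adjusted p = 0.0117 and 0.0178). Against LSK the Hspb8 probe set used here differed by 1.79 and its other probe sets by -0.04 and 0.02. Between the LIC groups the calls of Dsg2, Hspb8 and Vash2 were lost under 9, 2 and 4 of 18 alternatives, and that of Dsc2 under 6 of 17. Lss, the lanosterol synthase of sterol synthesis, was the gene set back from above: it rose by 1.83 in WT LICs (adjusted p = 0.00369) and was 1.34 lower in Ezh2 KO LICs (adjusted p = 0.0351). The Lss call between the LIC groups was lost under 11 of 18 alternatives. Its call in WT LICs was lost under 1, the mean of all probe sets. Abcg3, Ctr9 and Ldhb were set back in part. Ldhb, a lactate dehydrogenase subunit, was at 10.12, 10.49 and 10.45 in LSK, 6.84, 6.70 and 7.02 in WT LICs and 8.70 and 8.90 in Ezh2 KO LICs, so the knockout arrays lay between the others. The 22 became 7 and 5 without Ezh2 KO replicate 1 or 2, 7 and 9 without WT LIC replicate 1 or 2 and 12 when LSK replicate 3 was left out.

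**Figure D3:**
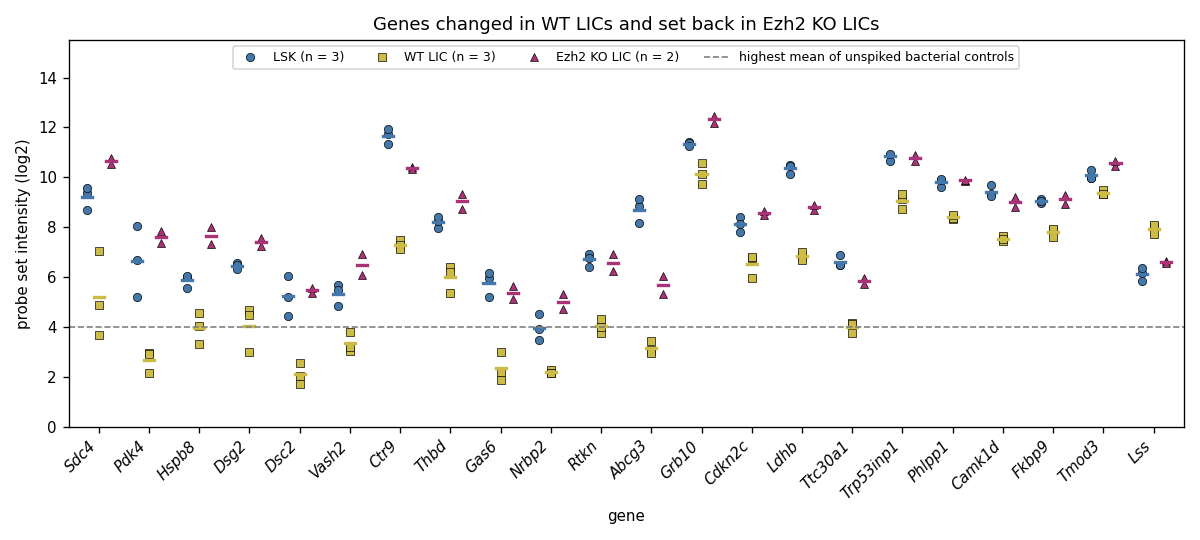
Log2 intensity of the 22 genes called in WT LICs against LSK and called in the opposite direction in Ezh2 KO against WT LICs, ordered by the Ezh2 KO minus WT difference; points are arrays, short bars group means and the dashed line the 4.01 control level. Only Lss, at the right, is brighter in WT LICs than in both other groups.

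Beyond these sets, 233 of the 404 genes changed in WT LICs were not called in Ezh2 KO LICs, yet 214 of these were not called between the LIC groups either, so loss of the change is not shown for them. Over the 252 genes lower in WT LICs, the median difference from LSK was -1.65 in WT and -1.12 in Ezh2 KO LICs, and over the 152 higher genes 1.29 and 1.00. The WT values chose these genes, so they are the larger by choice.

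Some lists had no member called by limma in Ezh2 KO LICs with all arrays. Of 18 erythroid genes 0 were called (1 higher and 1 lower at an unadjusted p under 0.05), with a median of -0.82 in Ezh2 KO and 0.50 in WT LICs. The summed erythroid markers above were lower in Ezh2 KO LICs than in LSK, while in WT LICs they ran from below to above the LSK range. This sum mostly follows Car1, its brightest marker in LSK, at 10.55, 11.23 and 10.83 there. Car1 read 7.90 and 5.50 in Ezh2 KO LICs and was not called (limma adjusted p = 0.398). Klf1, Hba-a1, Epor and Alas2 differed from LSK by -1.005, -0.43, -0.02 and 0.07, also not called. Hba-a1 and Alas2 were under the control level in both groups. The lower sum therefore does not show a general erythroid fall. Without WT LIC replicate 3, 5 of the 18 were called lower than in LSK in Ezh2 KO LICs. Interferon-stimulated genes had 0 of 31 called (0 higher and 5 lower unadjusted) and a median of -0.51, with Irf9, a subunit of the interferon-activated factor, at -1.05 (adjusted p = 0.0507); 1 and 2 were called lower without WT LIC replicate 2 or 3. MYC and ribosome biogenesis genes had 0 of 25 called (7 higher and 1 lower unadjusted), with Myc itself at -0.71 (adjusted p = 0.0844), and ERK feedback genes 0 of 11 (3 higher unadjusted, and 1 called without WT LIC replicate 1). Among surface proteins reported on CML stem cells, 4 of 22 fell (beside 1.86% of all genes) and 1 rose (beside 1.61%), and 1 or 2 fell without any one array other than WT LIC replicate 3. The fallen included Csf2ra, the GM-CSF receptor alpha chain, by 1.93 (adjusted p = 0.01), and Il3ra, the interleukin-3 receptor alpha chain, by 1.01 (adjusted p = 0.0397), and the one that rose was their shared beta chain Csf2rb, by 1.76 (adjusted p = 0.0354). The Il3ra and Csf2rb calls were lost under 12 and 8 of 18 alternatives, and that of Csf2ra with the mean of all its probe sets (adjusted p = 0.171).

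**Figure D4:**
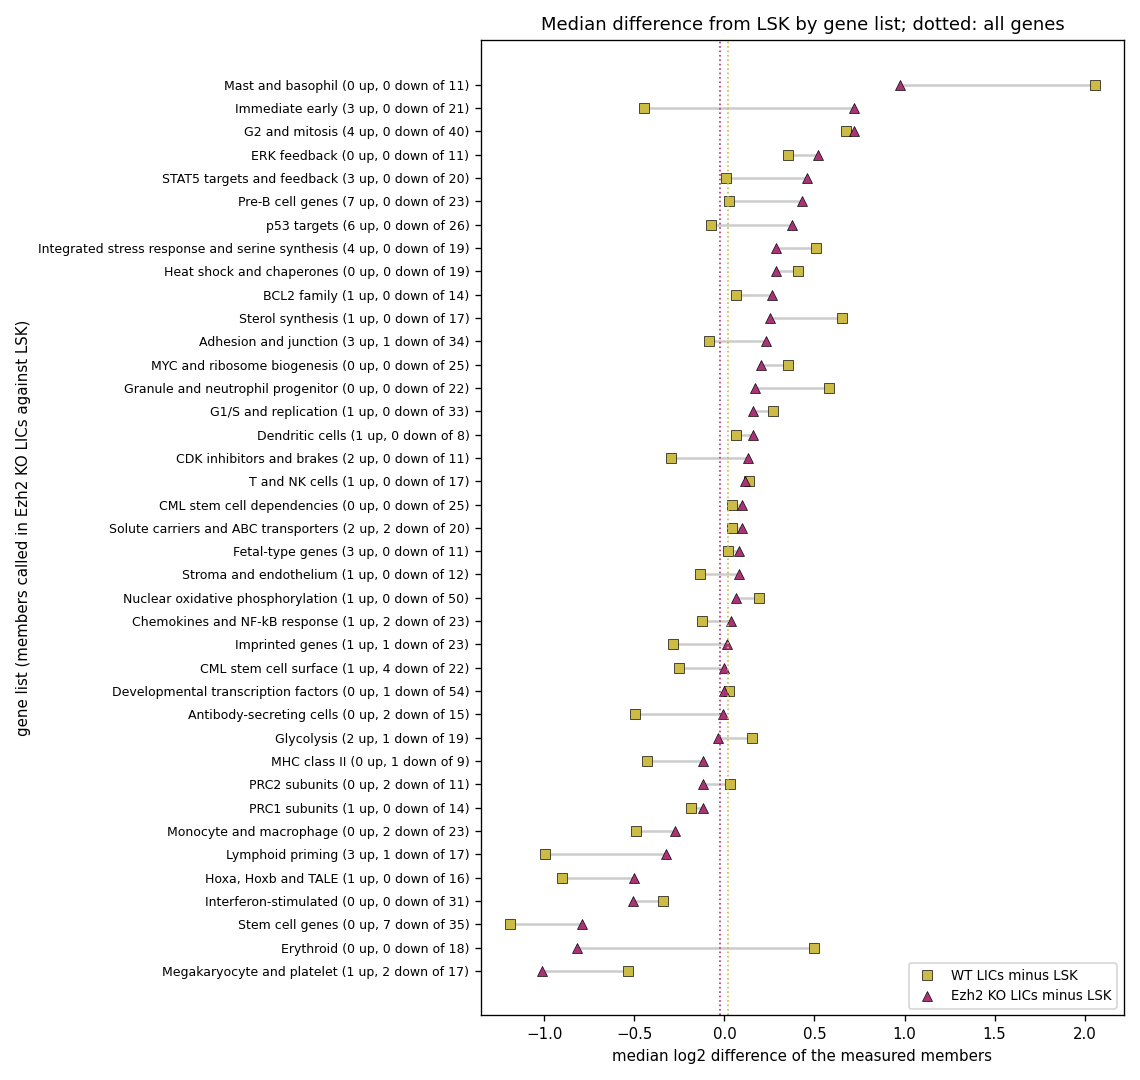
Median log2 difference from LSK over the measured members of each of 39 gene lists, in Ezh2 KO LICs (triangles) and WT LICs (squares); dotted lines are the medians over all genes and labels give the members called in Ezh2 KO LICs. Immediate early genes (0.72 and -0.45) and erythroid genes (-0.82 and 0.50) have medians of opposite sign in the LIC groups, while stem cell genes (-0.79 and -1.19) are low in both.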

How the data were processed

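Values came from the series table, with 22690 probe sets on 8 Affymetrix arrays. Per the labels' protocols, marrow cells were sorted into lysis buffer and total RNA was amplified by single-primer isothermal amplification and labelled with biotin. The submitters' processing notes name RMA, without a version; the sources used here give no further settings. The deposited values are linear intensity values from 1.94 to 19343.1, where log2 values had been assumed, and were turned into log2 without a pseudocount; the test stayed the same. Of the probe sets, 64 controls, 691 with several symbols and 1555 unlisted ones were left out, and 20380 with 1 symbol gave 12393 genes, each by the probe set brightest on average over 8 arrays. Chromosomes and promoters are from RefSeq tables of GRCm38.p6; 20351 of the single-symbol probe sets matched. The brightest mean of 27 unspiked bacterial control probe sets, 4.01, bounds a fold from below where a group lay at or under it.

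One limma model (version 3.58.1, R 4.3.3) held all 8 arrays (lmFit, eBayes, group as the only term, 5 residual degrees of freedom, 2-sided), with Benjamini-Hochberg adjustment over the 12393 genes and calls at 0.05; X, Y and immunoglobulin genes were dropped afterwards. Scripts were tested on simulated data. Exact permutation tests were not used, since 2 arrays against 3 cannot go below p = 0.1. The labels call the repeats biological, and p-values measure the spread between these samples. No batch is given in the labels used, so batch and group cannot be told apart.

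Members and gene lists were chosen with earlier results of these data known, and lists are described by counts and medians, with no test of a list. Named genes were Ezh2, Ezh1 and Cdkn2a; the 10 largest rises and falls among called, non-overlapping genes brighter than the median gene; the 8 largest in each direction for genes shared by both LIC groups and for those apart from both; the 6 largest set back; and up to 4 members of each list with the smallest p. Bmpr1a, Fzd2, Hoxc4, Alpl, Cldn7, Ctr9, Rag2, Fos, Mdm2, Ebf1, Pax5, Ms4a1, Vpreb1, Cd79b, Pou2af1, Angpt1, Eng, Kit, Perp and Ccng1 fall outside this rule and were named after their values were seen, as were the genes whose promoters are printed. Alternatives were a filter on dim genes, 3 scalings, another prior, array weights, fits of the compared groups alone, the mean of all probe sets of a gene, the replicate number as a block, leaving out each array, an earlier removal of X, Y and immunoglobulin genes, a minimum size and a threshold of 0.01. Repeating the list counts without each array and under other scalings, and summing marker intensities, were chosen after seeing the data. Plots were drawn with matplotlib 3.10.9.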

Additional observations from a re-analysis of the deposited data

Results flagged for a closer look

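In 22 genes the change of WT LICs against LSK went with an opposite, called difference between Ezh2 KO and WT LICs, and 46 genes differed in Ezh2 KO LICs from both other groups in the same direction. Both were picked out because the 2 LIC groups, set against the same LSK arrays, differed by a test of the difference itself. Eif2s3y, a Y-linked gene outside the comparisons, was 8.01 higher (log2) in Ezh2 KO LICs than in LSK, where no array exceeded 1.63. The immunoglobulin light chain transcript Igk, also left out, differed by -8.96, with 12.90, 12.49 and 12.83 in LSK and 4.59 and 2.98 in Ezh2 KO LICs. Both appeared in data that the comparisons do not use. What brought these 4 results about was not tested.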

How the results depend on the processing

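Below, counts follow one order: Ezh2 KO LICs against LSK (415), WT LICs against LSK (404), Ezh2 KO against WT LICs (75), shared by both LIC groups (171), apart from both (46) and set back (22). At a threshold of 0.01 they were 62, 73, 16, 29, 12 and 2. With the replicate number as a block they were 139, 239, 32, 65, 21 and 9; correlations of same-numbered arrays ran from -0.05 to 0.14, so the numbers were not taken to pair the samples. Leaving out one array gave 114 to 625, 163 to 612, 23 to 139, 43 to 259, 18 to 63 and 5 to 71, with the highest values without WT LIC replicate 3. Where an arm was left with 1 Ezh2 KO array, it was assumed to vary like the other groups. With array weights, which were lowest for that array at 0.51, WT LICs against LSK gave 884, Ezh2 KO against WT LICs 113, shared 303 and set back 44. Fitted without the LSK arrays, Ezh2 KO against WT LICs gave 30; the 3 sets need every group and have no such fit. Median centring moved the share of higher genes from 46.5% to 66.6%, from 37.6% to 59.2% and, for shared genes, from 39.8% to 62.2%. The cause of these moves was not tested. The other alternatives run left each count within 1.5 times. Of 85 named genes called against LSK, 24 kept their call under each of the 18 alternatives that refit the genes at the same threshold; of 3833 values of named genes over the alternatives 464 lost a call, 86 gained one and 0 changed sign. The number of arrays and signal near the 4.01 control level limit the precision, and genes dark in both groups have no measured fold.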
